A study of Mus musculus with 3 samples.

Results

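The IL-6 family and IL-33 axis was followed through the cells of the mouse diaphragm by 10 genes: the ligands Il6 and Lif, the receptor chains Il6ra, Il6st, Lifr, Osmr and Il11ra1, the feedback inhibitor Socs3, the alarmin Il33 and its receptor Il1rl1. The members were chosen by symbol, without a threshold, and all 10 were matched among 32285 listed genes, of which 22413 had a unique molecular identifier (UMI, 1 captured transcript) in any cell. Each was described by its UMIs per 1000000 UMIs summed over a cell class (CPM) and by the share of cells with at least 1 UMI. Levels were given by class, by state of the fibro-adipogenic progenitors (FAPs, the Pdgfra+ stromal cells of muscle that give rise to matrix-producing cells and fat cells) and by library.

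Mononuclear cells of the costal diaphragm were released with collagenase II, dead cells that took up DAPI were removed by flow cytometry, and 3′ single-cell RNA-seq was run on 3 libraries. WT CD came from male C57Bl/6J mice on control diet, and WT HFD from the same strain on a high-fat diet with 45% of energy from lipid. KO HFD came from mice with a whole-body Thbs1 null allele (B6.129S2-Thbs1tm1Hyn/J) on the high-fat diet. The diets were fed for 6 months from 2 months of age, and each library pooled 2 mice, so that every group was 1 library. No test between groups could be made, intervals cover counting error only, and a difference between groups cannot be told apart from a difference between libraries. There was no knockout library on control diet, so the effect of the allele without the diet was not measured.

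The libraries held 4132 barcodes and 34312860 UMIs for WT CD, 3774 barcodes and 31967976 UMIs for WT HFD, and 4369 barcodes and 36478779 UMIs for KO HFD. The median cell had 7632.5, 8041.5 and 7554 UMIs in that order. WT CD shared 7 barcode sequences with WT HFD and 7 with KO HFD, and the HFD libraries shared 2. The targeted gene, Thbs1, was read at 193 CPM in WT CD, 232 CPM in WT HFD and 229 CPM in KO HFD in FAP-like cells. The altered exons are not given in the sources used here, and a 3′ tag outside them checks nothing, so the genotype of the KO HFD library rests on its label.

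Cytokines of the IL-6 family signal through the shared chain gp130, encoded by Il6st, which pairs with a receptor specific to each ligand and activates JAK kinases and STAT3. SOCS3, a target of STAT3, binds gp130 and the JAKs and shuts the signal off. IL-33 is kept in the nucleus of stromal and barrier cells and is released on damage, and its receptor ST2, encoded by Il1rl1, marks type 2 innate lymphoid cells, mast cells and some regulatory T cells. In muscle, FAPs are known as sources of IL-6 and of IL-33.

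Cells fell into 27 clusters, built without the members and the other genes of the pathway lists. Of these, 25 were named by markers as 18 classes, 17 of them with at least 50 cells, and 2 clusters with 407 cells stayed unnamed. FAP-like cells were 6652 of 12275. They held Pdgfra, which encodes the receptor that defines FAPs, at 415 CPM and in 89.8% of cells, against 19.3 CPM in all other cells. They made up 54.3%, 52.9% and 55.2% of WT CD, WT HFD and KO HFD. The 6 FAP-like clusters were called states. Of these, 5 took the name of the listed markers that stood out most in them on average, and Plac8/Smpd3, for which no set reached a log2 ratio of 1, by its leading genes. They were Cxcl14/Mme (1602 cells), Fmod/Sfrp2/Tnmd (1297 cells), Dpp4/Sema3c (1230 cells), Plac8/Smpd3 (1141 cells), Dio2/Pthlh/Col8a1 (732 cells) and Agt/Ptx3 (650 cells). The set of the last also held Has1, left out of the name because it was lower there than in the other FAP-like cells, at 105 against 159 CPM. This state was led by Tmem176a and C4b, and it also held the markers of another set, with Penk at 585 CPM against 198 CPM in other FAP-like cells. Gdf10 was found in 60.2% and Rbp4 in 40.2% of its cells against Agt in 22.3% and Ptx3 in 11.5%, so that the name is a label only. Dpp4/Sema3c was led by Cmah and Limch1. In 2 states, Fmod/Sfrp2/Tnmd and Dio2/Pthlh/Col8a1, the tendon gene Thbs4 was among the 10 leading genes. Both kept Pdgfra in 90.4% and 90.3% of cells, while the tendon factor Scx was at 1.47 and 1.57 CPM, against 192 CPM in tenocyte-like cells. Other tendon markers were closer. Thbs4 was at 2218 and 2456 CPM against 1508 CPM in tenocyte-like cells, and Mkx at 7.56 and 6.87 CPM against 33.5 CPM. Tnmd was at 181 and 32.2 CPM against 339 CPM, and at 12.4 CPM in FAP-like cells outside Fmod/Sfrp2/Tnmd. The main comparisons of FAP-like cells are therefore also given by state, and the effect of leaving these states out is given with the comparison of all members.

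**Figure D1:**
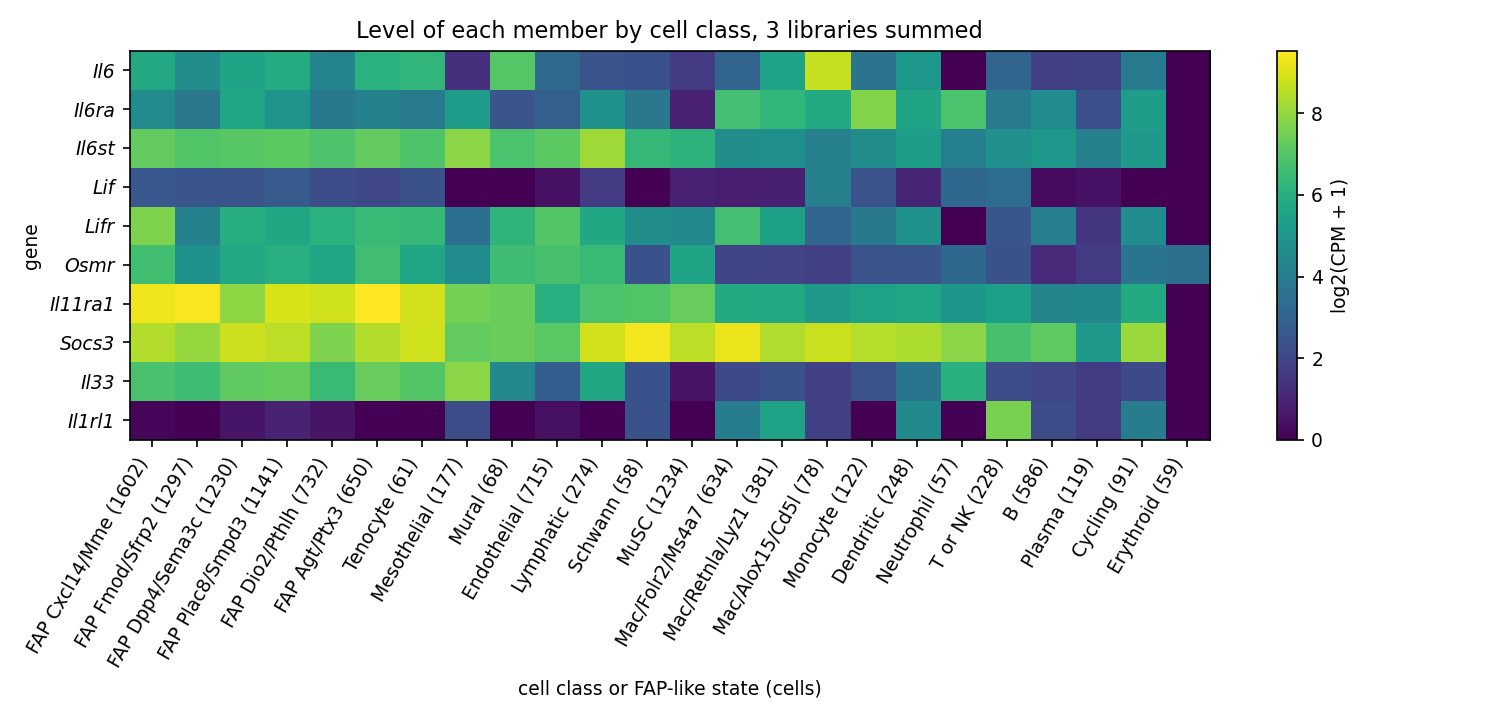
Level of the 10 members, as log2(CPM + 1) of UMIs summed over the 3 libraries, in the FAP-like states, the macrophage-like clusters and the other named classes, with the number of cells in brackets. Il11ra1 and Il33 were high over the stromal columns on the left, Il6ra over the myeloid columns, and Il1rl1 stood at 197 CPM in T or NK-like cells and below 1 CPM in every FAP-like state.

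Il6, the ligand that gives the family its name (chr5:30013114-30019981, plus strand, GRCm38), was read from 3766 UMIs, 69.9% of them in FAP-like cells. The 250 bases upstream of its start, at chr5:30012864-30013113 on the plus strand (RefSeq, GRCm38.p6), are shown because Il6 differed most of the members with at least 5 CPM between the HFD libraries in FAP-like cells, and AP-1, C/EBP and NF-kB are known regulators of this promoter.
Il6: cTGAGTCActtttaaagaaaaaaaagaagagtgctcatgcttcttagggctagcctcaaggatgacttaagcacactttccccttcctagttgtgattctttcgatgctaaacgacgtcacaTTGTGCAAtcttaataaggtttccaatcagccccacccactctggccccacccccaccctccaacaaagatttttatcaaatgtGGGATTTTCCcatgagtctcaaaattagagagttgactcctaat
Capitals mark, from 5′ to 3′, a match to AP-1 (TGANTCA) 249 bases upstream, to C/EBP (TTGCNNAA) 128 bases upstream and to NF-kB (GGG, any 2 bases, TTTCC) 44 bases upstream, searched on both strands. Among 32851 promoter windows of the same length, 6.75% held the AP-1 letters, 9.56% the C/EBP letters and 1.41% the NF-kB letters. Of the 14 windows of the 10 members, 2 held the first, 3 the second and 1, that of Il6, the third. None held the CRE letters TGACGTCA, which 1.55% of all windows held. A match is a description of the letters and not of binding.

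Across classes, Il6 stood at 128.5 CPM in mural-like cells, 76.7 CPM in tenocyte-like cells, 63.0 CPM in the macrophage-like class and 44.2 CPM in the FAP-like class. The first of these values came from few cells. Mural-like cells had 0, 2 and 52 UMIs in WT CD, WT HFD and KO HFD, and all 52 lay in 3 cells. Tenocyte-like cells had 11, 0 and 44 UMIs, 42 of the 44 in 1 cell, and 41.0% of these cells were called doublets. The ranges over libraries of the 4 classes overlapped along the order. MuSC-like cells, the muscle stem cells, stood at 2.14 CPM and B-like cells at 2.45 CPM.

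In FAP-like cells Il6 stood at 33.5 CPM in WT CD, 39.6 CPM in WT HFD and 58.5 CPM in KO HFD. A UMI of Il6 was found in 11.1% of cells (Clopper-Pearson 95% interval 9.78 to 12.4) in WT CD, 12.8% (11.4 to 14.4) in WT HFD and 14.2% (12.8 to 15.6) in KO HFD. B-like cells, which should hold little Il6, had a UMI in 0.853% of cells at a median of 7416.5 UMIs, against 8608.5 UMIs in FAP-like cells. With every cell thinned to 3000 UMIs, which left out 71, 37 and 57 FAP-like cells, the shares were 5.66%, 6.03% and 8.62%. The transcripts were concentrated in few cells. The 1% of FAP-like cells with the most Il6 held 36.4%, 34.5% and 32.9% of its UMIs, whereas the top 1% for Il33 held 9.75%, 10.9% and 11.7%. Cells with 10 or more Il6 UMIs numbered 9 in WT CD, 15 in WT HFD and 31 in KO HFD. Mean Il6 UMIs per cell with any were 2.67, 2.90 and 3.60.

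KO HFD FAP-like cells held 1.48 times the Il6 of WT HFD (95% interval of the ratio 1.35 to 1.62), and WT HFD held 1.18 times that of WT CD (1.06 to 1.31). These intervals, and those by state below, treat UMIs as independent. Since Il6 UMIs were concentrated in few cells, they do not cover the spread between cells and are too narrow for it. Among the states, Il6 was highest in Agt/Ptx3 in all 3 libraries, at 68.1, 51.5 and 80.9 CPM, and lowest in Dio2/Pthlh/Col8a1, at 12.8, 22.3 and 19.2 CPM, while neighbours in the order overlapped over the libraries. The KO HFD library was above WT HFD in 5 of 6 states, with an interval above 1 in all 5. Plac8/Smpd3 had 47.7 and 75.9 CPM (1.59-fold, 1.30 to 1.95), Agt/Ptx3 was 1.57-fold (1.19 to 2.09) and Cxcl14/Mme had 45.8 and 66.7 CPM (1.46-fold, 1.20 to 1.77). The exception was Dio2/Pthlh/Col8a1 at 0.859-fold (0.559 to 1.31). The diet pair was less even: Dpp4/Sema3c had 30.2 and 45.9 CPM (1.52-fold, 1.21 to 1.92), while Agt/Ptx3 was 0.757-fold (0.562 to 1.01).

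**Figure D2:**
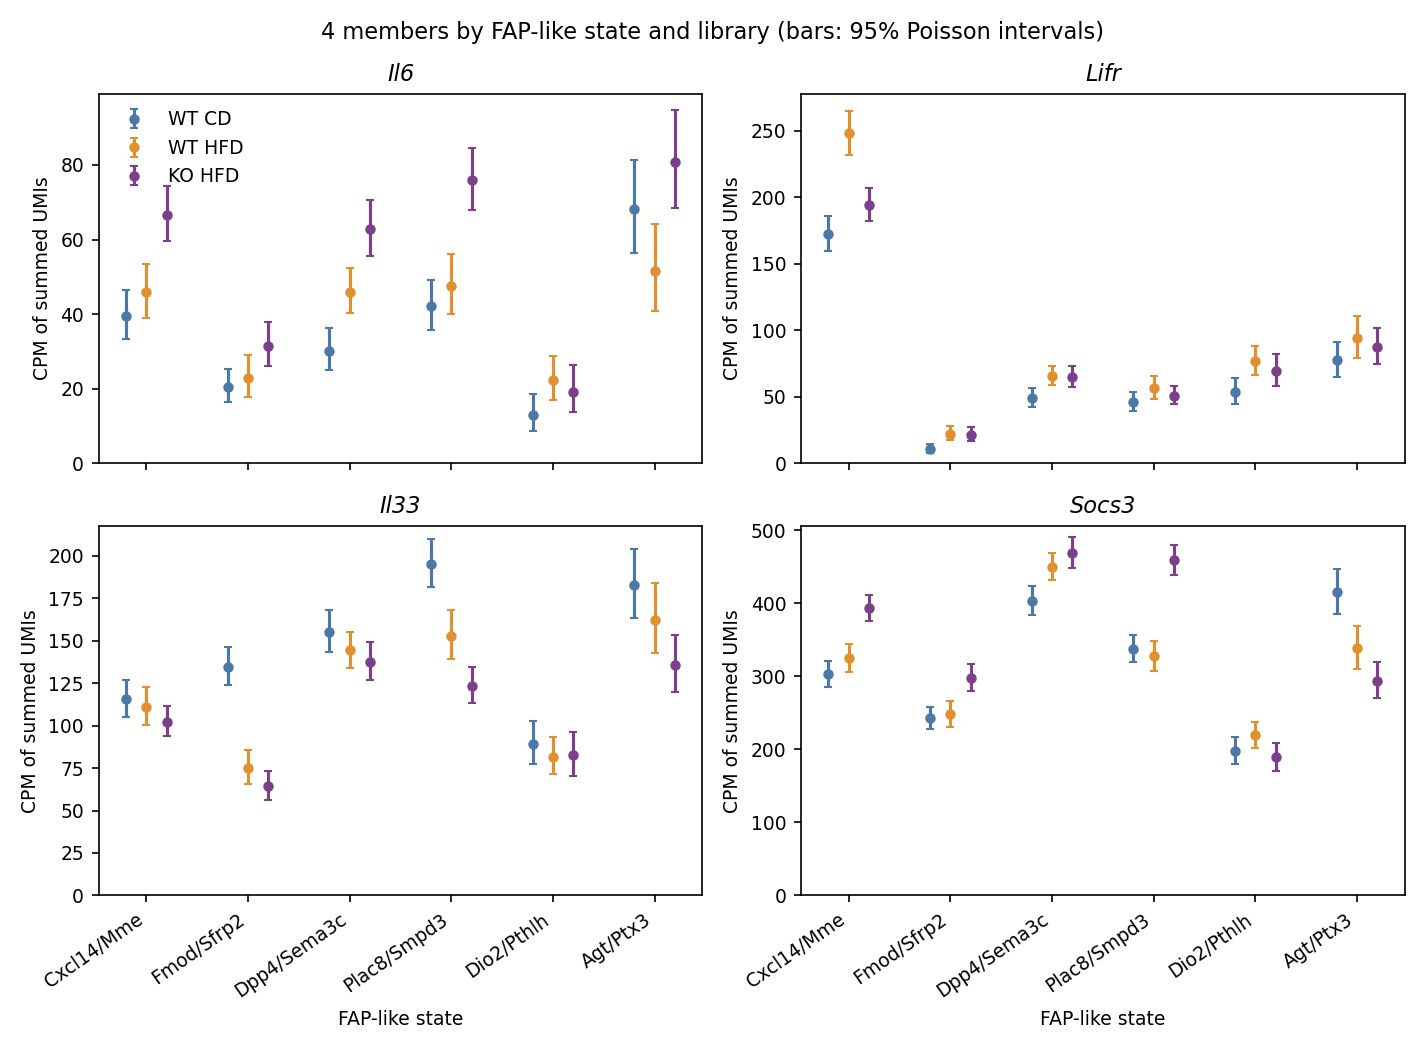
CPM of Il6, Lifr, Il33 and Socs3 in the 6 FAP-like states, 1 point per library with its 95% Poisson interval, each panel on its own linear axis from 0. Il6 of KO HFD lies above both WT libraries in 5 states, Lifr is highest in Cxcl14/Mme in each library, and Il33 of Fmod/Sfrp2/Tnmd stands at 135 CPM in WT CD against 75.0 and 64.5 CPM.

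Macrophage-like cells fell into 3 clusters whose Il6 levels did not overlap over the libraries. The Folr2/Ms4a7 cluster, with genes of resident macrophages, stood at 7.53, 9.28 and 5.99 CPM in WT CD, WT HFD and KO HFD. The Retnla/Lyz1 cluster stood at 52.6, 47.8 and 39.1 CPM. Its macrophage markers had a mean log2 ratio of 1.83, against 3.4 in Folr2/Ms4a7 and 2.98 in Alox15/Cd5l. With coarser clustering (Leiden resolution 0.5), a cluster of 571 cells with Lyz1 and Retnla among its leading genes was named dendritic. The macrophage-like name of Retnla/Lyz1 may therefore depend on the resolution. The Alox15/Cd5l cluster of 78 cells stood at 173, 492 and 183 CPM, with a UMI in 62.5%, 78.6% and 64.3% of its cells. This cluster had 8 cells in WT CD, 56 in WT HFD and 14 in KO HFD. Its 432 Il6 UMIs in WT HFD were most of the 521 of all macrophage-like cells there. As a whole, the class stood at 42.5, 116 and 30.7 CPM, 2.74-fold higher in WT HFD than in WT CD and 0.263-fold in KO HFD against WT HFD. Without the Alox15/Cd5l cluster the same levels were 37.7, 24.7 and 24.6 CPM. The ratios became 0.656 and 0.993. Folr2/Ms4a7 had 117, 263 and 254 cells in WT CD, WT HFD and KO HFD, and Retnla/Lyz1 had 114, 90 and 177. These ratios therefore mix the levels of the remaining clusters, given above, with their shares.

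**Figure D3:**
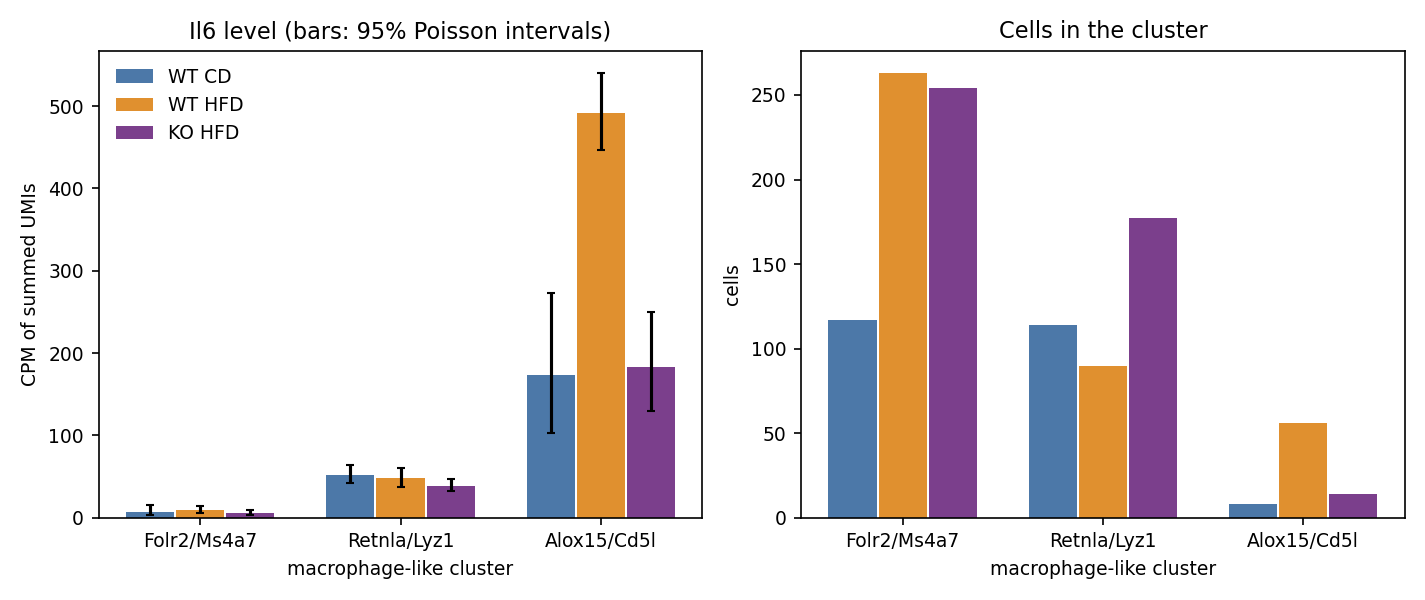
Il6 level in CPM with 95% Poisson intervals (left) and number of cells (right) for the 3 macrophage-like clusters in each library, on axes from 0. The Alox15/Cd5l cluster had the highest Il6 level in every library, and 56 of its 78 cells came from WT HFD.

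Lif, the ligand of LIFR (chr11:4257557-4272514, plus strand), was sparse. FAP-like cells held 274 of its 342 UMIs, at 4.41, 5.01 and 4.42 CPM in WT CD, WT HFD and KO HFD, and 3.79% of them had a UMI against 0.171% of B-like cells. The ratio was 1.14 (0.841 to 1.54) for the diet and 0.883 (0.656 to 1.19) for the knockout. Both intervals include 1, but the second ratio moved with thinning, a single random draw from 94 Lif UMIs in WT HFD and 93 in KO HFD. With cells thinned to 3000 UMIs it was 0.499, and the share of cells with a UMI was 1.99% in WT HFD and 0.976% in KO HFD. Other draws were not made. T or NK-like cells had 9.72 CPM from 14 UMIs, with a range that overlapped that of neutrophil-like cells.

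Several other ligands had their highest level outside the FAP-like cells. Cntf, a neurotrophic ligand of Schwann cells, reached 891 CPM in Schwann-like cells from 210 UMIs, with 771, 838 and 1034 CPM over the libraries. Osm, the ligand of OSMR, reached 558 CPM in neutrophil-like cells from 69 UMIs, with 466, 637 and 552 CPM. FAP-like cells held 6 Osm UMIs in all. Ctf1, which signals through LIFR and gp130, was highest in mesothelial-like cells at 32.2 CPM, and Il11, the ligand of IL11RA, was highest in FAP-like cells at 3.73 CPM.

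Among the receptors, Il6ra, the chain that binds IL-6 (chr3:89864059-89913196, minus strand), had its highest levels in myeloid classes, while the more numerous FAP-like cells held 46.7% of its UMIs. Monocyte-like cells had 214 CPM, and macrophage-like cells had 86.9 CPM, where the libraries ranged from 81.4 to 91.4 CPM. Neutrophil-like cells had 113 CPM, from 14 UMIs. The macrophage-like range did not overlap that of the next class, dendritic-like cells at 46.9 CPM. Mesothelial-like cells had 36.3 CPM and lymphatic-like cells 29.2 CPM. FAP-like cells had 24.6, 26.2 and 27.5 CPM in WT CD, WT HFD and KO HFD, and MuSC-like cells 0.856 CPM. A UMI was found in 16.98%, 19.0% and 17.6% of FAP-like cells and in 0.405% of MuSC-like cells. Among FAP-like states, Dpp4/Sema3c had the most Il6ra in each library, from 45.4 to 48.3 CPM, and no library of another state came above 32.3 CPM. Fmod/Sfrp2/Tnmd had 12.8 CPM, 3.70-fold less, and its range overlapped that of Dio2/Pthlh/Col8a1.

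Il6st (chr13:112464070-112510086, plus strand), the shared gp130 chain, was widespread over stromal and vascular classes. Lymphatic-like cells had 291 CPM, from 265 to 332 CPM over the libraries, and mesothelial-like cells 232 CPM, and neither range overlapped the next. Endothelial-like and FAP-like cells followed at 139 and 135 CPM with overlapping ranges. The states of FAP-like cells differed little, from 114.5 to 150.4 CPM, 1.31-fold. WT HFD was above WT CD in 6 of 6 states, from 1.001-fold to 1.39-fold, with an interval above 1 in 4. In all FAP-like cells it was 1.14-fold (1.07 to 1.20), at 139.6 against 122.9 CPM. KO HFD, at 141.6 CPM, was 1.01-fold (0.962 to 1.07).

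Lifr (chr15:7090614-7197489, plus strand) and Osmr (chr15:6813577-6874969, minus strand) encode gp130 partners for LIF and oncostatin M and lie 215645 bases apart. Endothelial-like cells had the highest level of each, 124 CPM of Lifr and 107 CPM of Osmr. The Lifr range did not overlap that of the next class, FAP-like cells at 82.9 CPM, but it overlapped those of tenocyte-like and mural-like cells, and in KO HFD tenocyte-like cells stood above, at 133.5 CPM from 19 cells against 95.9 CPM. The Osmr range overlapped those of mural-like and lymphatic-like cells, at 95.2 and 88.1 CPM over the summed libraries, and in KO HFD both stood above endothelial-like cells. Within FAP-like cells, Lifr had the widest spread among the states of the members found in all of them. Cxcl14/Mme had 172, 248 and 194 CPM in WT CD, WT HFD and KO HFD, and Fmod/Sfrp2/Tnmd 10.5, 22.2 and 21.4 CPM, 11.7-fold less over the summed libraries. The other 4 states stood between 50.5 and 85.9 CPM. Osmr was high in Cxcl14/Mme at 99.7 CPM and in Agt/Ptx3 at 97.9 CPM, whose ranges overlapped, and low in Fmod/Sfrp2/Tnmd at 29.1 CPM.

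Of the members with at least 5 CPM, Lifr was also the one that differed most between the diets in FAP-like cells. It stood at 66.5 CPM in WT CD and 94.9 CPM in WT HFD, 1.43-fold higher (1.33 to 1.53), and was found in 31.1% and 41.4% of cells, or 15.9% and 21.6% with cells thinned to 3000 UMIs. T or NK-like cells had a UMI in 2.19%. WT HFD was above WT CD in 6 of 6 states, with an interval above 1 in 4, from 1.22-fold in Agt/Ptx3 to 2.12-fold (1.43 to 3.17) in Fmod/Sfrp2/Tnmd. KO HFD, at 87.5 CPM, was 0.922-fold of WT HFD (0.863 to 0.984) and lower in 6 of 6 states, with an interval below 1 in 1, Cxcl14/Mme. In endothelial-like cells Lifr stood at 140.0, 130.9 and 95.9 CPM. Osmr in FAP-like cells stood at 56.1, 65.4 and 69.0 CPM, 1.17-fold higher in WT HFD than in WT CD (1.07 to 1.27), with 1.06-fold (0.978 to 1.14) between the HFD libraries.

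Il11ra1, the IL-11 binding chain (chr4:41699989-41769474, plus strand), was the 1 member with its highest level in FAP-like cells, at 516 CPM, and 89.7% of its UMIs lay there. Tenocyte-like cells followed at 472 CPM with an overlapping range and stood above FAP-like cells in WT HFD, at 646.6 CPM from 20 cells, and mesothelial-like cells at 185 CPM without. FAP-like cells had 519, 501 and 528 CPM in WT CD, WT HFD and KO HFD, and a UMI in 94.1%, 94.7% and 93.2% of cells, against 5.29% of B-like cells. The ratios were 0.964 (0.937 to 0.992) and 1.05 (1.03 to 1.08), and each changed side when the FAP-like states were weighted alike. The states were distinct: Agt/Ptx3 was highest at 739.6 CPM and Dpp4/Sema3c lowest at 239 CPM, and no neighbours in the order overlapped over the libraries. Near-identical Il11ra2 copies are listed beside Il11ra1, and reads shared between them may have been lost or split, so its level is uncertain.

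Socs3 (chr11:117966079-117970047, minus strand), the feedback inhibitor, was found in most classes. The 250 bases upstream of its RefSeq start, at chr11:117969367-117969616 on the minus strand (GRCm38.p6) and inside the span of the GENCODE gene, are shown because Socs3 is the member that STAT3 itself is known to induce.
Socs3: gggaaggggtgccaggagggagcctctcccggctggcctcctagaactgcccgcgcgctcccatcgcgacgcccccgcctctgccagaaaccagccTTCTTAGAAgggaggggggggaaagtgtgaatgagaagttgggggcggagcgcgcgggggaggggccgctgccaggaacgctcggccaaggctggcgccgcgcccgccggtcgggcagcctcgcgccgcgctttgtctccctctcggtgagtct
Capitals mark the match to the STAT letters TTCNNNGAA, 154 bases upstream. It was the 1 match among the 14 windows of the members, and 7.02% of all windows held these letters.

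Over the summed libraries, Schwann-like cells had the highest Socs3 level, 666 CPM from 58 cells, with 647, 798 and 568 CPM in WT CD, WT HFD and KO HFD. In KO HFD tenocyte-like cells stood above, at 683.6 CPM from 19 cells. Lymphatic-like, macrophage-like and tenocyte-like cells had 473, 459 and 454 CPM with overlapping ranges. Plasma-like cells were far lower at 34.3 CPM. FAP-like cells had 314, 333 and 377 CPM in WT CD, WT HFD and KO HFD, 1.06-fold higher for the diet (1.02 to 1.10) and 1.13-fold for the knockout (1.10 to 1.17). The states differed in direction between the HFD libraries. Of 6 states, 4 were higher in KO HFD, 3 with an interval above 1, and 2 were lower, both with an interval below 1. Dpp4/Sema3c had the highest summed level of the states, 442 CPM, and Dio2/Pthlh/Col8a1 the lowest, 203 CPM.

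Immediate early genes, which dissociation of tissue is known to induce, were also higher in KO HFD than in WT HFD, as Socs3 and Il6 were. The 12 listed genes, of which Fos was the most abundant and none was at 0, summed to 14563 CPM in WT CD, 13466 CPM in WT HFD and 16125 CPM in KO HFD in FAP-like cells. In KO HFD against WT HFD 11 of 12 were higher, and in WT HFD against WT CD 11 of 12 were lower. Their median log2 ratios were 0.29 and -0.21 in that order, against -0.04 and 0.08 for all genes. The part of the immediate early genes in the Socs3 and Il6 levels was not tested.

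Il33 (chr19:29925114-29960718, plus strand), the nuclear alarmin, was a transcript of mesothelial-like and FAP-like cells, and the latter held 90.1% of its UMIs. Mesothelial-like cells had 235 CPM, with 302, 222 and 201 CPM in WT CD, WT HFD and KO HFD. Tenocyte-like and FAP-like cells had 127 and 125 CPM with overlapping ranges, and in WT HFD tenocyte-like cells, at 222.1 CPM from 20 cells, were level with mesothelial-like cells. MuSC-like cells had 0.428 CPM, with a UMI in 2 of 1234 cells, 0.162%.

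In FAP-like cells Il33 stood at 146 CPM in WT CD, 121 CPM in WT HFD and 109 CPM in KO HFD. The ratios were 0.829 (0.784 to 0.876) for the diet and 0.898 (0.847 to 0.952) for the knockout on the diet. The share of cells with a UMI was 51.6%, 47.6% and 43.1%, and with cells thinned to 3000 UMIs it was 29.3%, 24.8% and 23.3%. WT HFD was below WT CD in 6 of 6 states, but the size was uneven. Fmod/Sfrp2/Tnmd had 134.7 and 75.0 CPM (0.557-fold, 0.475 to 0.650) and Plac8/Smpd3 had 195 and 153 CPM (0.783-fold, 0.695 to 0.881), while the intervals of the other 4 included 1. Fmod/Sfrp2/Tnmd is 1 of the states with Thbs4 among its leading genes. Without it and Dio2/Pthlh/Col8a1 the log2 ratio of FAP-like cells was -0.19 instead of -0.27. KO HFD was below WT HFD in 5 of 6 states, with an interval below 1 in Plac8/Smpd3 (0.807-fold, 0.710 to 0.916) and in Agt/Ptx3 (0.836-fold, 0.699 to 0.9997). Mesothelial-like cells were also lower in WT HFD than in WT CD, at 0.735-fold (0.590 to 0.917).

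Il1rl1 (chr1:40429570-40465415, plus strand), the IL-33 receptor, was read from 812 UMIs. Among classes with at least 50 cells, its level was 197 CPM in T or NK-like cells, followed by the macrophage-like class at 28.1 CPM and the dendritic-like class at 22.0 CPM, and the first range overlapped neither. The 26 mast-like cells, under the minimum of 50 cells for the order of classes, stood higher, at 1044 CPM from 41 UMIs (95% Poisson interval 749 to 1417), with a UMI in 69.2% of cells. Their libraries had 536, 1502 and 793 CPM from 7, 10 and 9 cells. FAP-like cells, which had the ligand, had 20 UMIs of the receptor in 6652 cells, with a UMI in 0.135% of them. MuSC-like cells had a UMI in 0 of 1234 cells, which allows a share of cells with a UMI of up to 0.243%, and this does not limit the share that express the gene. Counts at the 3′ end do not separate the membrane form of ST2 from the soluble form. Among macrophage-like clusters, Retnla/Lyz1 had a UMI in 44.1% of cells and 44.2 CPM, Folr2/Ms4a7 in 10.9% and 14.9 CPM, and the Il6-rich Alox15/Cd5l cluster had 3 UMIs in 78 cells. The level of the macrophage-like class thus rests on the naming of Retnla/Lyz1, which may depend on the clustering resolution.

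Most T or NK-like cells with an Il1rl1 UMI had no UMI of Cd3e or Cd3d. Of 228 T or NK-like cells, 105 had an Il1rl1 UMI, at a median of 5794 UMIs against 5317 without. Cd3e, a chain of the T cell receptor complex, was found in 4.76% of the cells with Il1rl1 and in 63.4% of those without. For Cd3d the shares were 6.67% and 71.5%. Trbc2, a constant gene of the T cell receptor, was found in 78.1% and 87.0%, and Cd8a in 0 of 105 cells and 16.3%. Gata3, the transcription factor of type 2 lymphocytes, was found in 81.9% and 31.7%, Areg, which encodes the repair factor amphiregulin, in 63.8% and 17.9%, and Il2ra in 70.5% and 23.6%. Il5 was found in 16.2% and 2.44%, and Foxp3, the factor of regulatory T cells, in 1.90% and 8.13%. The groups were split by Il1rl1 itself, so these shares are a description.

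**Figure D4:**
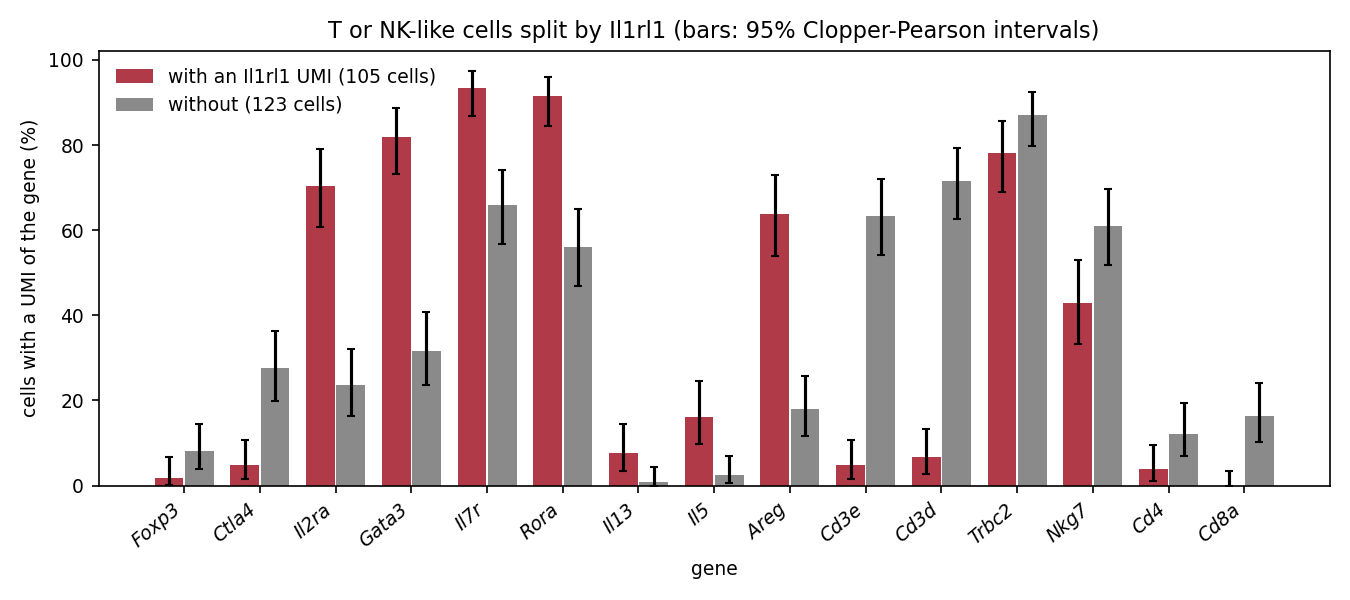
Share of T or NK-like cells with a UMI of each gene, for the 105 cells with and the 123 without an Il1rl1 UMI, with 95% Clopper-Pearson intervals. Gata3, Areg and Il2ra were found more often in cells with Il1rl1, and Cd3e and Cd3d less often.

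By library, T or NK-like cells had an Il1rl1 UMI in 37 of 88 cells in WT CD, 16 of 51 in WT HFD and 52 of 89 in KO HFD. The level was 143, 102 and 309 CPM, 0.713-fold for the diet (0.462 to 1.08) and 3.03-fold for KO HFD against WT HFD (2.09 to 4.52). Since the class holds cells with and without Cd3e, a level of the class and the share of its kinds of cells cannot be told apart. Macrophage-like cells had 31.2, 25.2 and 28.7 CPM.

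In FAP-like cells as a whole, none of the 9 members with at least 5 CPM passed 1.5-fold in either comparison. For WT HFD against WT CD, 0.91% of 9886 genes were higher and 1.19% lower by that fold. For KO HFD against WT HFD, 0.901% of 9877 were higher and 0.425% lower. At a ratio of 5 to 4 or more, Lifr was the 1 member higher for the diet, where 7.64% of genes were higher and 4.21% lower. Il6 was the 1 member higher for the knockout, where 3.91% were higher and 3.57% lower. The median log2 ratio of the members was 0.18 for the diet, against 0.08 for all genes, and 0.07 for the knockout, against -0.04. Without the 2 states with Thbs4 among their leading genes, 0 members passed 1.5-fold in either comparison. The log2 ratio for the diet was then 0.19 for Il6, 0.41 for Lifr, -0.11 for Il11ra1 and -0.19 for Il33, and for the knockout 0.57 for Il6, -0.14 for Lifr, 0.16 for Socs3 and -0.19 for Il33. The comparisons share the WT HFD library.

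**Figure D5:**
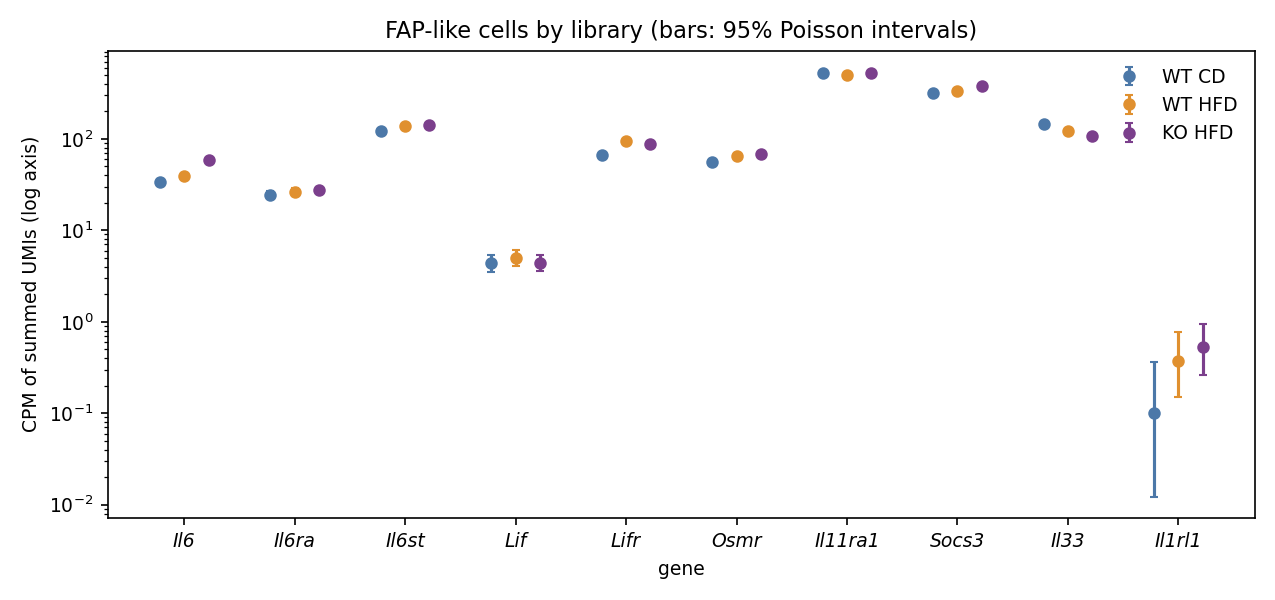
CPM of each member in FAP-like cells, 1 point per library with its 95% Poisson interval, on a log axis. Il6 of KO HFD (58.5 CPM) and Lifr of WT CD (66.5 CPM) stand apart from the other libraries of the same gene, Il33 stands at 146, 121 and 109 CPM, and Il1rl1 stays below 1 CPM.

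Other genes of the pathway were counted from fixed lists in the same FAP-like cells. Of 12 STAT3 targets and feedback genes, 11 had at least 5 CPM. For the diet, 2 were higher by 1.5-fold and 1 lower, beside 0.91% and 1.19% of all genes. For the knockout 3 were higher and 0 lower, beside 0.901% and 0.425% of all genes. The median log2 ratios were 0.08 and 0.30, against 0.08 and -0.04 for all genes. Timp1, an inhibitor of matrix proteases, stood at 44.8, 107.9 and 87.3 CPM in WT CD, WT HFD and KO HFD. Saa3, an acute-phase protein, stood at 0.304, 6.61 and 17.3 CPM, from 6, 124 and 364 UMIs. Bcl3, a nuclear member of the IkB family, stood at 9.37, 9.12 and 16.2 CPM, 1.77-fold between the HFD libraries (1.47 to 2.14). Hp, which encodes haptoglobin, stood at 13.6, 6.98 and 11.0 CPM, 0.515-fold for the diet (0.414 to 0.637) and 1.57-fold for the knockout (1.26 to 1.965). Macrophage-like cells had the most Saa3, at 182, 444 and 249 CPM, and the Alox15/Cd5l cluster held 3879 of their 3896 UMIs. Within that cluster the order differed, with 5000.3, 2256 and 6460.2 CPM from 8, 56 and 14 cells. In the Folr2/Ms4a7 and Retnla/Lyz1 clusters no library was above 5.31 CPM. The part of free RNA from these cells in the FAP-like counts was not tested.

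Of 9 NF-kB target cytokines and inhibitors, none passed 1.5-fold in either comparison, and 7 were higher and 2 lower in both. Their median log2 ratios were 0.30 and 0.16, against 0.08 and -0.04 for all genes. Cxcl1, a neutrophil attractant, stood at 516, 499 and 733 CPM, 1.47-fold between the HFD libraries (1.43 to 1.51). Of 10 IL-6 family ligands 3 reached 5 CPM. Of these, 1 was higher by 1.5-fold for the diet, beside 0.91% of all genes, and none passed for the knockout. Their median log2 ratios were 0.24 and -0.18. Of 7 IL-6 family receptors, 6 reached 5 CPM and none passed 1.5-fold, with medians of 0.14 and 0.07. Of 6 signal transducers, including Jak1 and Stat3, none passed. Their median log2 ratios were 0.17 for the diet, against 0.08 for all genes, and 0.00 for the knockout, against -0.04, and none reached a ratio of 5 to 4 in either direction. Of 7 IL-33 axis genes, 6 reached 5 CPM and none passed, with medians of 0.06 and -0.03. Of the 12 immediate early genes, none passed for the diet. For the knockout 1, Nr4a1 (1.501-fold, 1.45 to 1.55), passed, where 0.901% of all genes were higher by that fold. The medians of the 12 were -0.21 and 0.29.

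The genes whose levels over 22 classes and FAP-like states were most like each member were found by Pearson's r of log2(CPM + 1) among 10427 genes. The points share libraries and class depths, and r is a description. For Il11ra1 they were Mxra8 (r = 0.97), Rcn3 and Fam114a1. For Il33 they were Osr1 (r = 0.95), Podn and Wnt5a. For Il1rl1 they were Il7r (r = 0.96), Cd226 and Ccl5. For Il6st they were Zmym5 (r = 0.96), Arhgef12 and Pgrmc2, and for Socs3 Wsb1 (r = 0.96), Atp6ap2 and Fbxw11. For Lifr they included Pea15a (r = 0.91) and Spred1, for Il6ra Pgd (r = 0.89), Tlr2 and Nadk, and for Osmr Tns2 (r = 0.88), Snrpn and Synm. Il6 (Slc41a3, r = 0.87, Gpnmb and Tnfsf9) and Lif (Enc1, r = 0.76, Slc6a2 and Irak3) had no gene as close. The nearest member pair was Il6st and Il11ra1 (r = 0.88), and Il1rl1 had no member closer than Il6ra (r = 0.22).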

How the data were processed

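Per the labels and methods, the authors sequenced 3′ single-cell libraries (10x Genomics) and counted them with Cell Ranger (6.1.1 in the submitters' processing notes) on mm10, and deposited filtered matrices of raw UMI counts per gene and barcode, which are not normalized. Here all 12275 barcodes were kept. Counts were scaled to 10000 per cell and log-transformed, and 2000 variable genes, 30 principal components and 15 neighbours were used for Leiden clustering (scanpy 1.11.5, leidenalg 0.10.2, resolution 1), with the 63 member and list genes left out. A cluster was named for the class whose markers had a mean log2 ratio of at least 1, with at least 3 of them in 10% of its cells. Doublets were called by Scrublet (expected rate 0.06), which marked 52, 41 and 58 barcodes, and were kept, with their removal as an alternative.

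UMIs were summed by class and library and divided by all UMIs of that sum. Intervals of CPM are exact Poisson, of shares Clopper-Pearson and of ratios exact binomial given both counts, all at 95%, and a count of 0 allows 3 UMIs or cells. They cover counting error only. Those of CPM and of ratios treat every UMI as independent and leave out the spread between cells. With 1 library per group there is no test, and a gene was called when its ratio passed 1.5-fold and either library of the pair held it at 5 CPM or more. Named genes were the members, the 3 genes most like each member among those with at least 20 CPM somewhere, and listed genes past 1.5-fold in FAP-like cells or highest of their list in a class. Thbs1, Cxcl1, Ctf1, Il11, Fos, Jak1, Stat3, Trbc2 and Cd8a were named after their values were seen. Of the genes this rule names, 2 are not reported here. The members and lists were chosen with earlier results of these data known. Promoter bases came from RefSeq (GRCm38.p6), and all 10 members matched. Coordinates are of GENCODE on GRCm38. edgeR 4.0.16 gave the TMM scaling factors of an alternative. Python 3.11.15 and scipy 1.17.1 were used.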

Additional observations from a re-analysis of the deposited data

Results flagged for a closer look

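Members that stood higher in 1 class and lower in another, each by a ratio of 5 to 4 or more, under the same comparison, both with intervals that left out 1, at least 100 UMIs and at least 50 cells of the class in every library, are given here, and the difference between the classes was not tested. Il6 in KO HFD against WT HFD was 1.48-fold in FAP-like cells and 0.263-fold in macrophage-like cells. The macrophage value was 0.993 without the Alox15/Cd5l cluster, and it mixes the levels of the remaining clusters with their shares. Il11ra1 in WT HFD against WT CD was 1.69-fold in lymphatic-like cells (61.2 to 103.6 CPM), 0.516-fold in endothelial-like cells (83.2 to 43.0 CPM) and 0.717-fold in MuSC-like cells (209 to 149.5 CPM). Socs3 in WT HFD against WT CD was 1.37-fold in dendritic-like cells, 1.28-fold in MuSC-like cells and 0.623-fold in T or NK-like cells, the last from 78 and 29 UMIs.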

How the results depend on the processing

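No paired analysis was possible because each group has 1 library. The 0 members past 1.5-fold in FAP-like cells for the diet became 1 with the smaller ratio of 5 to 4 (Lifr) and 1 with no minimum CPM (Il1rl1, from 2 and 7 UMIs). The 0 for KO HFD against WT HFD became 1 (Il6) with every cell weighted alike, with TMM scaling and with the smaller ratio, and 2 (Il6 and Lif) with cells thinned to 3000 UMIs. Thinning was a single random draw, and Lif had few UMIs to draw from. Over 9 alternatives Il6 ranged from 1.43-fold to 1.57-fold for the knockout and from 1.06-fold to 1.18-fold for the diet. The 1 member highest in FAP-like cells (Il11ra1) became 2 in WT CD alone (with Il33) and 2 in KO HFD alone (with Il6) where only classes with 50 cells in that library were ranked. This left out mesothelial-like cells in WT CD and mural-like and tenocyte-like cells in KO HFD, which stood above. With the classes of the pooled ranking, a setting chosen after seeing the data, it was Il11ra1 in WT CD and in KO HFD and 0 members in WT HFD, where tenocyte-like cells stood above. Il11ra1 reversed when states were weighted alike, to log2 ratios of 0.0452 for the diet and -0.00406 for the knockout (main -0.05 and 0.08). Il6 in macrophage-like cells reversed for the diet, to 0.656, without the Alox15/Cd5l cluster, a setting chosen after seeing the data, as was leaving out the states with Thbs4. The remaining macrophage-like clusters also differed in their shares between the libraries. Of the log2 ratios under an alternative, 168 stayed inside the counting interval of the main value, 8 left it and 2, those of Il11ra1, were counted as reversed. Il6ra for the diet, down to 0.956-fold, and Il6st for the knockout, down to 0.974-fold, also changed side but were not counted as reversed. Il33 stayed below 1 in every one (0.789-fold to 0.877-fold and 0.875-fold to 0.937-fold), and Lifr stayed above 1 for the diet (1.33-fold to 1.48-fold). With 5 k-means states, Il6 spread 6.47-fold over states instead of 3.70-fold and Socs3 3.68-fold instead of 2.18-fold. With 1 library per group, depth sets the counting error of a level, and it also sets the shares of cells with a UMI. With cells thinned to 3000 UMIs, the Il6ra difference in FAP-like cells turned from 2.02 to -0.08 points for the diet. For the knockout it turned from -1.43 to 0.53 points, and that of Osmr from -0.73 to 2.49 points. Il6st and Il1rl1 also turned for the knockout, and Il11ra1 for the diet.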

Other observations

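Saa3, an acute-phase gene of the STAT3 list, was found in 2.93% of macrophage-like cells in WT CD, 13.0% in WT HFD and 3.37% in KO HFD. The Alox15/Cd5l cluster, with 8, 56 and 14 cells in these libraries, held 5, 49 and 14 of the 7, 53 and 15 cells with a UMI. Lrg1, another STAT3 target, had 504 CPM in lymphatic-like cells and 210.4 CPM in neutrophil-like cells, against 6 UMIs in all FAP-like cells. Ebi3, the shared chain of IL-27 and IL-35, stood at 32.5 CPM in monocyte-like cells. Plasma-like cells, with 119 cells in all, had 101 from WT CD, 7 from WT HFD and 11 from KO HFD, and B-like cells had 337, 156 and 93.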
